A study of Saccharomyces cerevisiae with 12 samples.

Results

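MSN2, MSN4, GIS1, RIM15 and XBP1 encode a group of regulators through which budding yeast (Saccharomyces cerevisiae) prepares for stress and for the resting state that follows exhaustion of nutrients. They were chosen by gene symbol, as the probe sets annotated with any of these 5 names, and not by their measured values. Each of the 5 was read by 1 probe set, so the group held 5 of the 5448 genes measured. The data are 12 Affymetrix expression arrays (Yeast Genome 2.0), of which each of 4 strains with the genetic background W303-1A has 3. The wild type carries no named mutation. The bmh mutant, YLL1087, carries the temperature-sensitive allele bmh1-170ts and lacks BMH2. The hdac mutant, CTY-TY44, lacks HDA1 and RPD3. The combined mutant, KBY3, carries all 4 alterations. All strains grew exponentially at 30 °C in YP medium with 5% glucose to an optical density between 0.7 and 1.3, and each genotype was a single strain grown as 3 cultures. Differences between strains other than the named alleles cannot be told apart from the effects of those alleles.

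BMH1 and BMH2 encode the yeast 14-3-3 proteins, which bind phosphorylated partners, and HDA1 and RPD3 encode the catalytic subunits of histone deacetylase complexes that repress many promoters. Rim15 is a protein kinase that promotes entry into the resting state; with ample glucose, protein kinase A (PKA), the TORC1 pathway and the cyclin-dependent kinase Pho85 hold it inactive or in the cytoplasm, where 14-3-3 proteins bind it. Msn2 and Msn4 are related zinc-finger activators that bind the stress response element (STRE) and that are also retained in the cytoplasm while PKA is active, and Gis1 is a zinc-finger factor of post-diauxic genes that acts downstream of Rim15. Xbp1 is a repressor, made during stress and in resting cells, that lowers transcription of cyclin and many other genes. Most of this control acts on the proteins, and the arrays measure only RNA: they show neither where Msn2 or Rim15 resides nor whether it is active. Each array reads the RNA of a whole culture, so a larger share of cells with a transcript and more transcript per cell cannot be told apart.

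The deleted genes were low where the genotype labels place a deletion. BMH2 lay at 4.03 ± 0.12 in the bmh and 3.80 ± 0.023 in the combined mutant (log2 signal, mean ± SD, n = 3), against 11.64 ± 0.17 (wild type) and 11.65 ± 0.055 (hdac), and HDA1 and RPD3 were likewise at 3.78 to 3.89 only in the hdac and combined strains. The highest of these 18 signals of absent genes, 4.13, served as the background of the arrays, a choice made after the values were seen. Mating-type transcripts differed between strains. The mean of 7 a-cell markers was 10.85 to 10.92 on the wild-type arrays, 10.58 to 10.65 on the bmh, 9.03 to 9.06 on the combined and 5.88 to 5.99 on the hdac arrays, whereas the mean of 4 alpha-cell markers was 5.53 to 5.96 on those 9 arrays and up to 10.02 on the hdac arrays. The alpha-factor gene MF(ALPHA)1 was at background in the wild-type, bmh and combined strains. The alpha-agglutinin gene SAG1 was nearly as high in the combined (9.53) as in the hdac mutant (9.90), against means of 7.97 (wild type) and 8.15 (bmh) in the others. Mating-type transcripts therefore cannot be told apart from the genotype compared in any comparison with the hdac mutant. Against the wild type that is the deacetylase genotype, and against the combined mutant, which also lacks HDA1 and RPD3, it is the bmh mutations. In the combined against the hdac mutant all 7 a-cell markers rose and all 4 alpha-cell markers fell. Mating-type transcripts also differed between the combined and bmh mutants. In that comparison 6 of 7 a-cell markers fell (median −1.74, BAR1 −3.28, MFA1 −2.13), and of the 4 alpha-cell markers SAG1 rose (1.38) and 2 fell. Those falls were of STE3 (−0.40) and of MF(ALPHA)1 (−0.29), the latter at background in both strains. Wild-type arrays were more spread (median SD over genes 0.136) than those of the mutants (0.0654 to 0.0681). The fit used below pools the spread of a gene over all strains, so its pairwise standard errors are alike. They can be too small in comparisons with the wild type and too large between mutants.

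The plot of signals by array shows all 5 genes on a common log2 scale. Signals of different probe sets are not comparable in level, so only strains are compared within a gene.

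**Figure D1:**
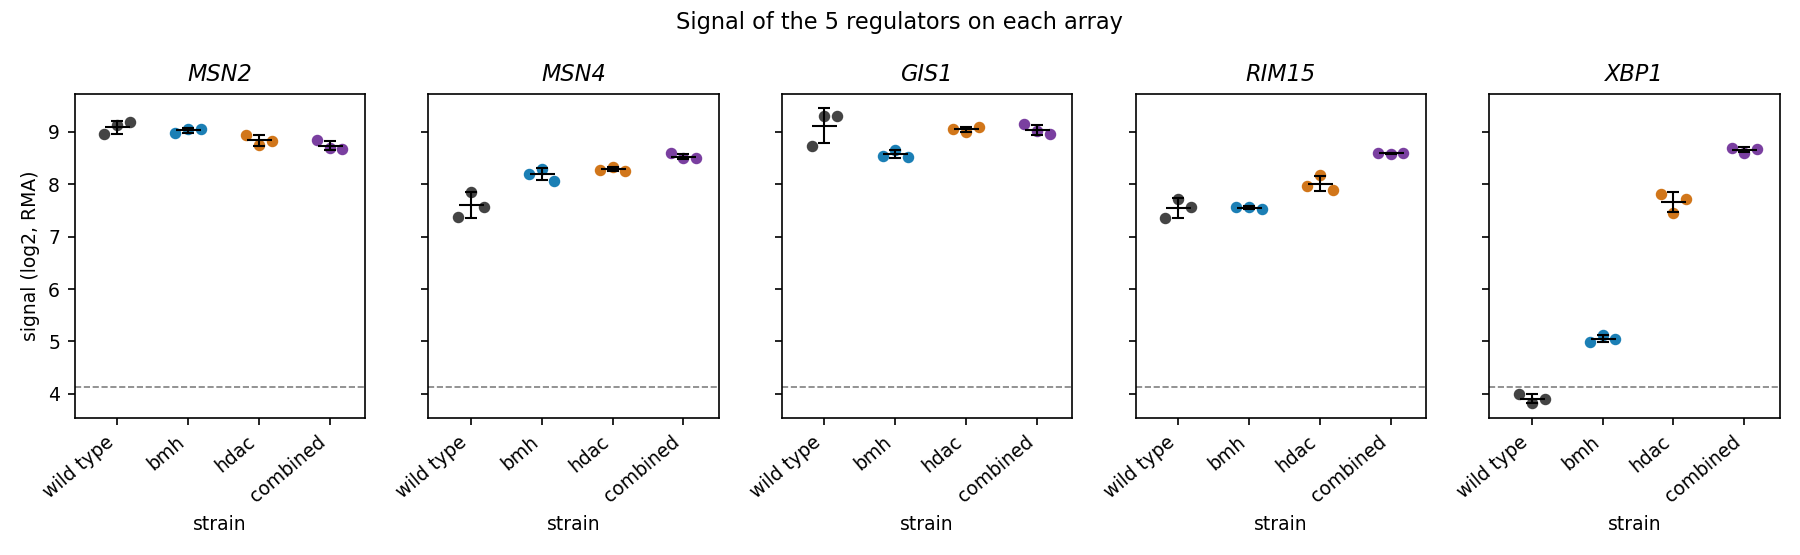
Log2 RMA signal (y axis) of MSN2, MSN4, GIS1, RIM15 and XBP1 on each of 12 arrays, by strain (x axis; 3 points per strain, replicates 1 to 3 from left to right). Black bars give the mean ± SD and the dashed line is the background of 4.13. XBP1 rises from below the background in the wild type to 8.66 in the combined mutant, while the other 4 genes stay between 7.35 and 9.31 on all arrays.

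RIM15 RNA was highest in the combined mutant. RIM15 (YFL033C) read 7.35, 7.72 and 7.56 on the wild-type arrays, 7.57, 7.56 and 7.53 in the bmh mutant, 7.97, 8.17 and 7.90 in the hdac mutant, and 8.60, 8.58 and 8.59 in the combined mutant. The wild-type and bmh arrays overlapped, every hdac array lay above both, and every combined array lay above all others. RIM15 rose by 0.47 ± 0.091 in the hdac mutant (log2 difference ± SE; limma with Benjamini-Hochberg adjustment over all genes, adjusted p = 0.00058) and by 1.05 ± 0.091 in the combined mutant (adjusted p = 5.3e-07) relative to the wild type, a 2.07-fold rise in the latter. With the bmh mutations alone the difference was 0.01 ± 0.091 (95% interval −0.19 to 0.21, adjusted p = 0.94). In the strain without HDA1 and RPD3 the same bmh mutations went with a rise of 0.58 ± 0.091 (combined against hdac, adjusted p = 0.00041).

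MSN2 and MSN4, which encode related activators, moved in opposite directions in the hdac and combined mutants relative to the wild type. MSN4 rose in the bmh mutant as well, whereas MSN2 did not pass the test there. MSN2 (YMR037C) read 8.95, 9.12 and 9.18 on the wild-type arrays, 8.98, 9.05 and 9.06 on the bmh, 8.94, 8.74 and 8.83 on the hdac and 8.84, 8.69 and 8.68 on the combined arrays. The strains without the deacetylases were lower than the others by small amounts, with no array of the one kind reaching the other kind. MSN2 fell by 0.25 ± 0.077 in the hdac mutant (adjusted p = 0.012) and by 0.35 ± 0.077 in the combined mutant (adjusted p = 0.0013) relative to the wild type, and by 0.29 ± 0.077 in the combined relative to the bmh mutant (adjusted p = 0.0045). The median gene also lay lower in these comparisons, by 0.09, 0.13 and 0.12; with that shift removed, the differences of MSN2 were −0.16 (adjusted p = 0.091), −0.22 (adjusted p = 0.024) and −0.17 (adjusted p = 0.066). The hdac call also ended without hdac array 2 (−0.20, adjusted p = 0.052). The bmh mutations went with −0.06 ± 0.077 in the presence of the deacetylases (95% interval −0.23 to 0.11) and with −0.10 ± 0.077 in their absence (95% interval −0.27 to 0.07), neither of which passed the test.

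MSN4 (YKL062W) read 7.38, 7.86 and 7.57 on the wild-type arrays, 8.20, 8.30 and 8.07 on the bmh, 8.28, 8.32 and 8.26 on the hdac and 8.59, 8.50 and 8.50 on the combined arrays. All 9 mutant arrays lay above all wild-type arrays, the bmh and hdac arrays overlapped, and the combined arrays were the highest. MSN4 rose by 0.59 ± 0.10 in the bmh mutant (1.502-fold, adjusted p = 0.0011), by 0.68 ± 0.10 in the hdac mutant (1.61-fold, adjusted p = 7.7e-05) and by 0.93 ± 0.10 in the combined mutant (1.90-fold, adjusted p = 4.8e-06). MSN4 was higher by 0.34 ± 0.10 in the combined than in the bmh mutant (adjusted p = 0.010), a call lost at the stricter threshold of 0.01. Mating-type transcripts also differed in that comparison, and their part was not tested. The further difference of 0.24 ± 0.10 between the combined and hdac mutants did not pass (adjusted p = 0.088), although those arrays did not overlap. It passed with only the combined and hdac arrays in the fit (adjusted p = 0.0040), with array weights (adjusted p = 0.0068), and without wild-type array 1 (adjusted p = 0.020) or wild-type array 2 (adjusted p = 0.024), which enter this comparison only through the pooled spread.

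GIS1 RNA was lowest in the bmh mutant. GIS1 (YDR096W) read 8.73, 9.31 and 9.31 on the wild-type arrays, 8.54, 8.66 and 8.52 on the bmh, 9.06, 8.9997 and 9.10 on the hdac and 9.14, 9.02 and 8.96 on the combined arrays. All bmh arrays lay below all others, and wild-type array 1 lay 0.58 below the average of its fellow replicates. GIS1 fell by 0.55 ± 0.13 in the bmh mutant (1.46-fold, adjusted p = 0.0066), and it was higher by 0.48 ± 0.13 in the hdac mutant (adjusted p = 0.0050) and by 0.47 ± 0.13 in the combined mutant (adjusted p = 0.0053) than in the bmh mutant. Without wild-type array 1 the fall in the bmh mutant was 0.74, and with only the wild-type and bmh arrays in the fit the call ended (adjusted p = 0.054). Relative to the wild type, GIS1 differed by −0.07 ± 0.13 in both the hdac (95% interval −0.35 to 0.21) and the combined mutant (95% interval −0.35 to 0.21). Those values depended on wild-type array 1: without it they were −0.26 (adjusted p = 0.0031) and −0.27 (adjusted p = 0.0023).

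XBP1 changed the most of the 5. XBP1 (YIL101C) read 3.996, 3.83 and 3.90 on the wild-type arrays, 5.00, 5.13 and 5.04 on the bmh, 7.82, 7.44 and 7.72 on the hdac and 8.69, 8.60 and 8.68 on the combined arrays. No arrays of different strains overlapped, and all 3 wild-type arrays were at or below the background, so that XBP1 RNA was not measurably above background in the wild type. The measured differences from the wild type were 1.15 ± 0.088 in the bmh mutant (adjusted p = 1.2e-06), 3.75 ± 0.088 in the hdac mutant (adjusted p = 6.4e-12) and 4.75 ± 0.088 in the combined mutant (adjusted p = 7.5e-13). Taken from the background of 4.13, the rise was at least 1.90-fold with the bmh mutations, at least 11.5-fold without the deacetylases and at least 23-fold with both changes. Between strains that were all above background, XBP1 was 12.1-fold higher in the combined than in the bmh mutant (3.60 ± 0.088, adjusted p = 1.3e-11). In the same comparison 6 of 7 a-cell markers fell and SAG1 rose, as given above, and their part in the result was not tested. In strains without the deacetylases XBP1 was 1.99-fold higher with the bmh mutations (1.00 ± 0.088, combined against hdac, adjusted p = 3.4e-06). There all 7 a-cell markers rose and all 4 alpha-cell markers fell, and their part was not tested either. The order of XBP1 was wild type, bmh, hdac and combined, and each neighbouring pair differed beyond its spread.

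Across comparisons, members called changed at an adjusted p under 0.05 were set against the share of all genes so called. In the bmh mutant against the wild type 3 of 5 members were called (MSN4 and XBP1 up, GIS1 down), with 32.0% of all genes called. Against the wild type 4 of 5 were called in the hdac mutant, where 71.4% of all genes were called, and 4 of 5 in the combined mutant, where 75.7% were; in both strains MSN4, RIM15 and XBP1 rose and MSN2 fell. These 3 comparisons share the wild-type arrays. Within the bmh mutant, deacetylase loss was followed by calls for all 5 members (75.0% of all genes), with MSN2 down and the other 4 up. The combined mutant differed from the hdac mutant at 2 of 5 members, RIM15 and XBP1, with 36.4% of all genes called. The hdac mutant differed from the bmh mutant at 4 of 5, with 72.1% of all genes called: GIS1, RIM15 and XBP1 were higher and MSN2 was lower (−0.19 ± 0.077, adjusted p = 0.040). That MSN2 call ended in 5 of the 12 fits that left out 1 array, namely bmh array 2 or 3, hdac array 2 or 3 or combined array 2, with adjusted p between 0.051 and 0.15 there. With the shift of the median gene removed the value was −0.11 (adjusted p = 0.22). A count of called members near the share of all genes is no property of these 5 genes, and in the comparisons involving deacetylase loss nearly any 5 genes would hold several calls.

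The design also asks whether the bmh mutations act alike with and without the deacetylases, which is the interaction: the combined-minus-hdac difference less the bmh-minus-wild-type difference. The plot of both effects by genetic background sets them side by side.

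**Figure D2:**
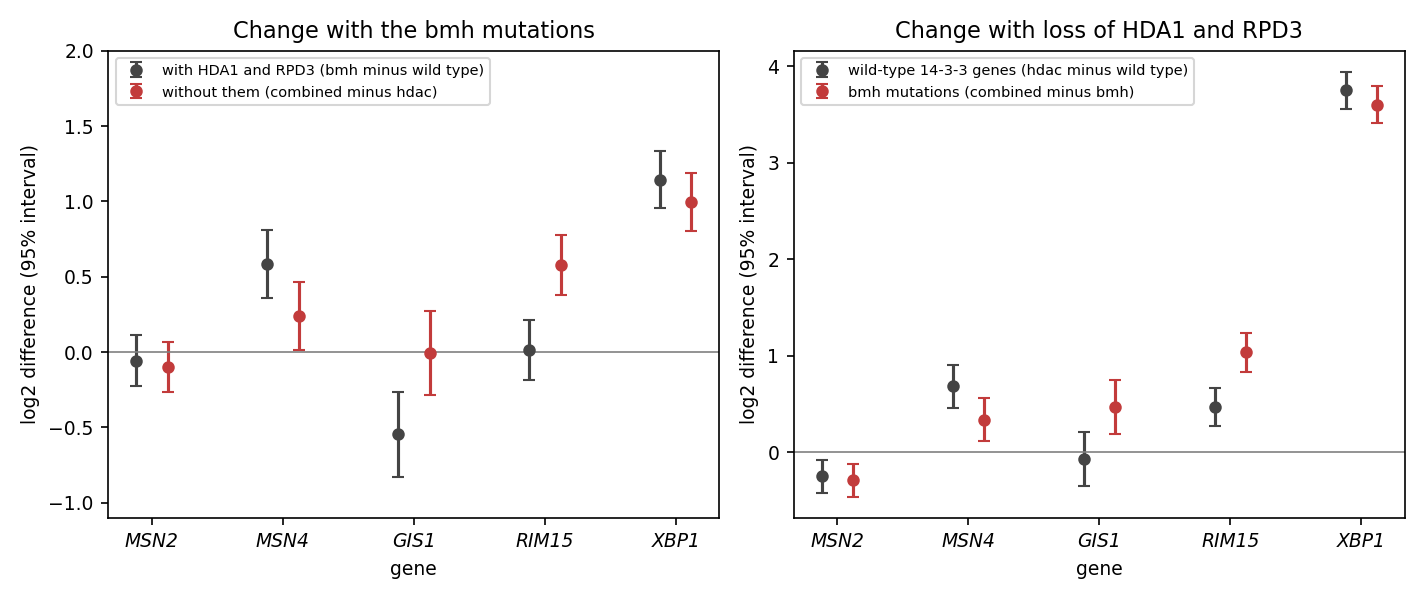
Log2 differences with 95% intervals (y axis) for the 5 genes (x axis). The left panel gives the change with the bmh mutations with HDA1 and RPD3 present (grey) or absent (red), and the right panel the change with loss of HDA1 and RPD3 in strains with wild-type 14-3-3 genes (grey) or the bmh mutations (red). RIM15 moves from 0.01 to 0.58 between the backgrounds on the left, GIS1 from −0.55 to −0.01, and XBP1 from 1.15 to 1.00. Values of XBP1 relative to the wild type, the 1.15 among them, rest on a wild-type signal at background.

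RIM15 was the 1 member of 5 that passed the interaction test, which 23.7% of all genes passed. Its interaction was 0.57 ± 0.13 (95% interval 0.28 to 0.85, adjusted p = 0.0076). The single-mutant differences of RIM15 sum to 0.48 whereas the combined mutant stood 1.05 above the wild type. GIS1 had an interaction of similar size, 0.54 ± 0.18 (95% interval 0.14 to 0.93), which missed the threshold (adjusted p = 0.0502). Without wild-type array 1 it was 0.73 (adjusted p = 4.1e-05). Over the alternatives run it lay between 0.44 and 0.73, with adjusted p up to 0.11, and 17 of 23 left it uncalled. For GIS1 the bmh mutations went with −0.55 when the deacetylases were present and with −0.01 when they were absent. MSN4 went the other way: the single-mutant rises sum to 1.27 and the combined mutant stood 0.93 above the wild type, with an interaction of −0.35 ± 0.15 that did not pass (adjusted p = 0.11) except without wild-type array 2 (−0.47, adjusted p = 0.010). The interactions of MSN2 (−0.04 ± 0.11, 95% interval −0.28 to 0.20) and XBP1 (−0.15 ± 0.12, 95% interval −0.42 to 0.12) did not pass, and that of XBP1 rests on a wild-type signal at background. The interaction includes the hdac strain, whose mating-type transcripts differ, and this cannot be told apart from the effects of the genotypes.

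Genes under these regulators were then described. The lists were drawn from textbook knowledge, with earlier results of these data known. They are given by counts beside the share of all genes called, and in some comparisons by medians beside the median of all genes. Of 36 genes commonly assigned to Msn2 and Msn4, such as small heat shock proteins and enzymes of glycogen and trehalose metabolism, 12 rose and 4 fell in the bmh mutant (32.0% of all genes called in either direction), with a median difference of 0.14 against −0.01 for all genes. The largest rises were those of HSP12 (3.81 ± 0.50), a stress-induced membrane protein, YGP1 (2.69 ± 0.18), a secreted glycoprotein, CYC7 (2.34 ± 0.22), the hypoxic isoform of cytochrome c, and MSC1 (1.98 ± 0.20). The heat-induced mitochondrial chaperone HSP78 (−0.62), the disaggregase HSP104 (−0.41), the glycogen debranching enzyme GDB1 (−0.35) and RGI1 (−0.68) fell. The STRE list was high on wild-type array 1, with a median 0.46 above the other wild-type arrays, and without that array 22 of the 36 rose and 4 fell, with a median of 0.28. Leaving out wild-type array 3 gave 11 rises and 7 falls.

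In the hdac mutant 71.4% of all 5448 genes were called, 1624 rising and 2268 falling. Of the 36 STRE genes 34 rose and 0 fell, with a median of 1.10 against −0.09 for all genes. The largest rises were in the glycogen phosphorylase GPH1 (3.71 ± 0.13), the small heat shock protein HSP26 (3.33 ± 0.23), the glucokinase GLK1 (3.24 ± 0.31) and the phosphatase SDP1 (2.99 ± 0.12). In the combined mutant 75.7% of all genes were called, 1657 rising and 2465 falling. Of the 36 STRE genes 34 rose and 0 fell, with a median of 1.59 against −0.13. They were led by GPH1 (5.27 ± 0.13), HSP12 (5.01 ± 0.50), MSC1 (3.93 ± 0.20) and the reticulon-like RTN2 (3.64 ± 0.074). Over the fits that left out 1 array the rises numbered 32 to 34 in the hdac and 32 to 35 in the combined mutant, with 0 falls. In the combined against the hdac mutant 23 of 36 rose and 1, HSP26, fell (−0.68, adjusted p = 0.033), with 36.4% of all genes called (954 up and 1028 down). The median was 0.48 against −0.02 for all genes. Mating-type transcripts also differed in that comparison, and their part was not tested. That fall of HSP26 was lost when any 1 combined or hdac array was left out, and the rises then numbered 18 to 21; without wild-type array 1, 25 rose and 4 fell. In the interaction 14 of 36 were higher and 5 lower than additive, with 23.7% of all genes called. RTN2 stood at 2.04 ± 0.10, the hexokinase HXK1 at 1.41 ± 0.36, GPH1 at 1.34 ± 0.18 and YGP1 at −1.35 ± 0.26. The hdac strain, whose mating-type transcripts differ, enters these values, and the part of those transcripts was not tested. Without wild-type array 1 the interaction gave 15 higher and 11 lower.

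Genes linked to Gis1 rose where GIS1 RNA itself did not. Of 6 such genes all rose in the hdac mutant (median 1.22 against −0.09 for all genes), with 71.4% of all genes called and 1624 of them rising. All 6 rose in the combined mutant (median 1.62 against −0.13), with 75.7% called and 1657 of them rising. Among the rises in the combined mutant were MOH1 (3.89 ± 0.15), a gene induced in stationary phase, the cell wall protein SPI1 (3.76 ± 0.072), GRE1 (2.39 ± 0.15) and the chaperone SSA3 (0.85 ± 0.096). In the bmh mutant, in which GIS1 RNA fell, 3 of the 6 rose and 0 fell, with 32.0% of all genes called. The rises were those of SPI1 (0.60 ± 0.072), GRE1 (0.51 ± 0.15) and MOH1 (0.44 ± 0.15). Those calls of GRE1 and MOH1 ended, leaving 1 rise, where wild-type array 2 or 3 or bmh array 3 was omitted, and that of MOH1 also ended if bmh array 1 or 2 was. Gis1 is known both to activate and to repress, and PHR1 and DPP1, genes that it is known to repress, rose in the hdac mutant by 0.32 ± 0.090 and 0.58 ± 0.093.

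The 5 genes listed as repressed by Xbp1 changed in both directions, and 3 of 5 were called in each mutant. Of all genes, 32.0% were called in the bmh and 71.4% in the hdac mutant. The counts in the hdac and combined mutants did not stand above the share of all genes. In the combined mutant, with XBP1 RNA at its highest and 75.7% of all genes called, the G1 cyclin CLN1 (−0.40 ± 0.068, adjusted p = 0.00017) and the mitotic cyclin CLB2 (−0.99 ± 0.076, adjusted p = 1.6e-07) fell, the mitotic cyclin CLB1 rose (0.50 ± 0.068, adjusted p = 2.9e-05), and the values of the G1 cyclin CLN3 (−0.06) and the cysteine synthesis gene CYS3 (−0.06) did not pass. Without wild-type array 1, 3 of the list fell and 1 rose. The hdac mutant gave the same counts, with CLB2 at −0.79, CLN1 at −0.32 and CLB1 at 1.28, and in the bmh mutant CLN3 rose (0.34), an increase lost without bmh array 2 (adjusted p = 0.052), while CLB1 (−0.32) and CLN1 (−0.27) fell.

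**Figure D3:**
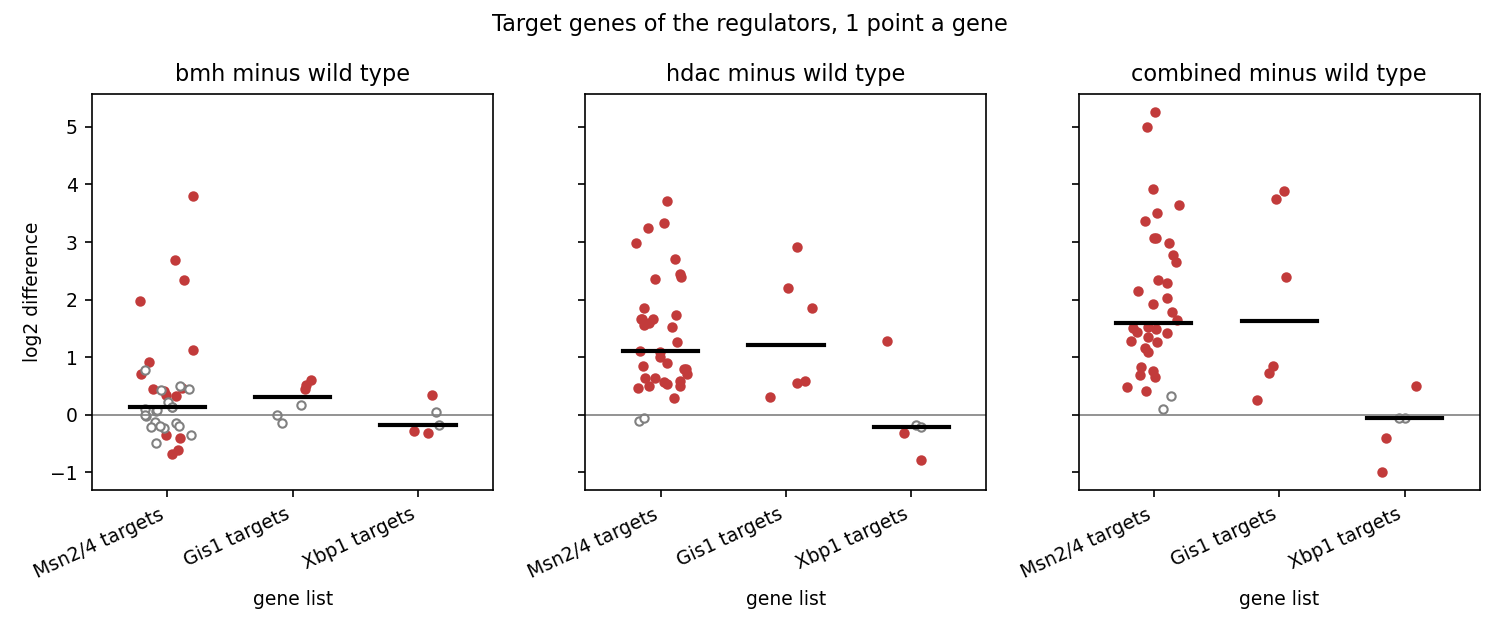
Log2 differences from the wild type (y axis) of genes assigned to Msn2 and Msn4 (36 genes), Gis1 (6) and Xbp1 (5) in the bmh, hdac and combined mutants (panels; gene lists on the x axis). Each point is a gene, filled red where its adjusted p was under 0.05 and open otherwise, and bars are medians. The medians of the Msn2 and Msn4 genes are 0.14, 1.10 and 1.59 in the 3 mutants.

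Other genes of the signalling network changed in both directions. The Ras and PKA branch, which holds Rim15, Msn2 and Msn4 in check, had 13 measured genes. In the bmh mutant 1 rose (PDE1, 0.58 ± 0.13) and 1 fell (RAS2, −0.38 ± 0.13), with 32.0% of all genes called. The RAS2 call ended when any 1 of the bmh, hdac or combined arrays was left out. Without wild-type array 1 the list gave 3 rises and 4 falls. In the hdac mutant 6 rose and 5 fell (71.4% of all genes called), and in the combined mutant 7 rose and 4 fell (75.7% called), counts too close to those shares to be a result about these 13 genes. In the combined mutant the kinase subunit TPK2 rose (1.51 ± 0.14) as did the adenylate cyclase CYR1 (1.05 ± 0.11) and the inhibitory subunit BCY1 (0.94 ± 0.053), while the kinase subunit TPK3 fell (−1.15 ± 0.075). Counts for the combined mutant were 7 and 4 in every fit that left out 1 array.

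Of 9 genes of the TORC1 and Sch9 branch, 1 rose and 5 fell in the hdac mutant (71.4% of all genes called) and 3 rose and 3 fell in the combined mutant (75.7% called), so that neither count stood above the share of all genes. In the combined mutant the TORC1 subunit LST8 (−1.01 ± 0.080), the phosphatase SIT4 (−0.82 ± 0.078) and its partner TAP42 (−0.64 ± 0.084) fell and the kinase TOR2 rose (0.33 ± 0.078); without wild-type array 1, 5 fell. In the bmh mutant TOR1 (−0.42 ± 0.069) and LST8 (−0.27 ± 0.080) fell and TAP42 (0.32 ± 0.084) rose. The LST8 call there ended where wild-type array 3 or else bmh array 1 was omitted and the TAP42 call where bmh array 2 was; with wild-type array 1 omitted, 2 genes rose.

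Among 17 other kinases, phosphatases and transport factors that act on Msn2, Msn4 or Rim15, 2 rose and 6 fell in the combined mutant, with 4 and 9 without wild-type array 1, where 75.7% of all genes were called with all arrays. PHO80, the cyclin with which Pho85 phosphorylates Rim15, fell by 1.85 ± 0.13 in the combined mutant and by 1.49 ± 0.13 in the hdac mutant, and its value in the bmh mutant was −0.24 (adjusted p = 0.19). YAK1, a kinase opposed to PKA, rose in all 3 mutants, by 0.68 ± 0.067, 1.06 ± 0.067 and 1.49 ± 0.067 in the bmh, hdac and combined strains. WHI2 (−1.09 ± 0.13) and PSR1 (−0.81 ± 0.11), which encode a phosphatase complex acting on Msn2, fell in the combined mutant. IGO1 and IGO2 encode the substrates through which Rim15 acts. IGO1 differed from the wild type by −0.09 in the combined mutant (adjusted p = 0.18), and IGO2 fell by 0.22 (adjusted p = 0.0058). MSN5, the exporter of Msn2 from the nucleus, fell in the bmh mutant (−0.28 ± 0.075, adjusted p = 0.015).

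Of 18 other transcription factors of stress and resting cells, 5 rose and 4 fell in the combined mutant (75.7% of all genes called), and 9 fell without wild-type array 1. USV1, a factor induced on stress and starvation, rose by 1.85 ± 0.10 in the hdac and by 1.96 ± 0.10 in the combined mutant. YAP6 rose in all 3 mutants (1.29 ± 0.092, 0.86 ± 0.092 and 1.52 ± 0.092 in the bmh, hdac and combined strains). COM2 rose by 0.94 ± 0.091 in the bmh mutant and had a value of 0.12 (adjusted p = 0.24) in the combined mutant. RPH1, the close relative of GIS1, did not pass against the wild type in any mutant, with values of 0.20 (adjusted p = 0.32), −0.22 (adjusted p = 0.18) and −0.14 (adjusted p = 0.36). In the bmh mutant the list gave 5 rises and 1 fall (32.0% of all genes called), but 3 rises and 6 falls without wild-type array 1. It gave 3 rises when bmh array 1 or 2, hdac array 1 or 3, or any combined array was left out. The fall was lost without wild-type array 2 or 3 or any bmh array. In the hdac mutant the list gave 4 rises and 8 falls (71.4% of all genes called), and 2 rises without hdac array 1. The counts with all arrays lay near or below those shares and are no result about these 18 genes.

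**Figure D4:**
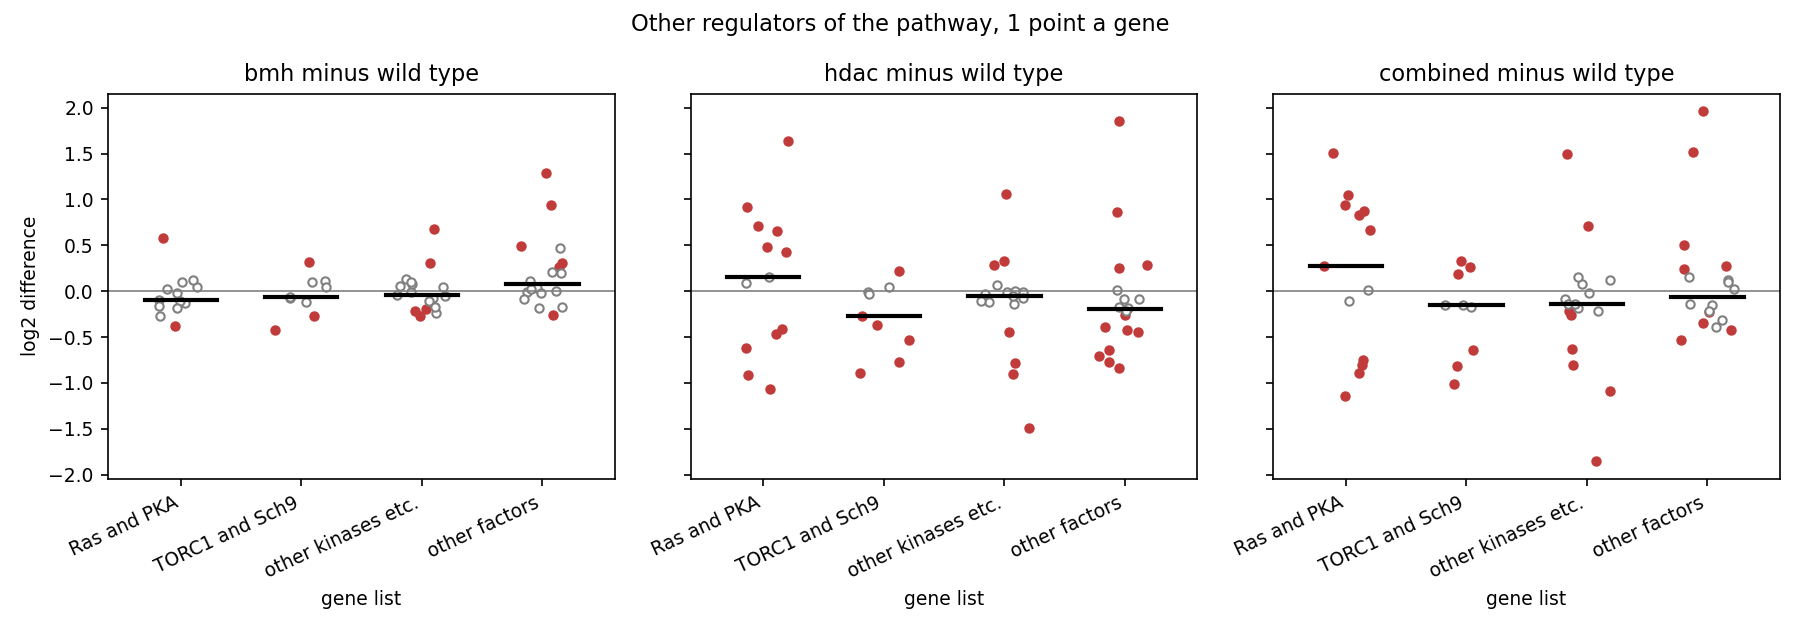
Log2 differences from the wild type (y axis) of other genes of the network in the bmh, hdac and combined mutants (panels): the Ras and PKA branch (13 genes), the TORC1 and Sch9 branch (9), other kinases, phosphatases and transport factors (17) and other transcription factors (18), on the x axis. Each point is a gene, filled red where its adjusted p was under 0.05 and open otherwise, and bars are medians, which lie between −0.27 and 0.28 in all panels.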

How the data were processed

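The authors deposited log2 signals; RMA and affy are named in the submitters' processing notes, without versions. The sources used here name no genome build, and no coordinates are printed. The base of the logarithm was inferred from RMA and from values of 3.39 to 14.87. Per the labels' protocols, 250 ng of RNA extracted with hot acid phenol were labelled with an Affymetrix 3' IVT Express kit. Array medians were 8.81 to 8.85, and 3 arrays per strain limit the precision. RMA quantile normalization assumes like distributions on all arrays, which can shift differences where many genes change.

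Of 5715 probe sets, 5497 had 1 gene symbol, 0 several and 218 none; 12 symbols were updated through Entrez identifiers, and the brightest probe set was kept per gene, leaving 5448 genes, with no filter on low values. Source names give the hdac and combined strain names the other way round; groups follow titles and genotypes. The test was limma 3.58.1 under R 4.3.3, a means model of all 12 arrays with 8 residual and 3.82 prior degrees of freedom, Benjamini-Hochberg adjusted over all genes; intervals are 95%. This fit was checked on simulated data. Those data had the same spread of a gene in every strain, whereas the real wild-type arrays were more spread. Exact permutation tests of 3 against 3 arrays cannot give p below 0.1 (two-sided), which the non-overlapping pairs reached. Deviations of same-numbered bmh and combined arrays correlated at 0.135, 0.100 and 0.129, so that these arrays were fitted once more with pairs as a block, a pairing taken from the data.

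Members and lists were chosen with earlier results of these data known. Named are the members, the deleted genes, up to 4 called genes with the largest change per list and comparison, and the 3 genes most correlated with each member; HSP78, HSP104, GDB1, RGI1, HSP26 in the combined against hdac comparison, PHR1, DPP1, PHO80, IGO1, IGO2, MSN5, COM2, RPH1, the uncalled Xbp1 genes and the genes flanking a member were named outside that rule after their values were seen. The result of 1 listed gene is not reported here. Alternatives were quantile normalization, centring, other spread models, array weights, fits of the compared groups, a replicate block, other probe set rules, a filter on dim genes, a stricter threshold and leaving out each array.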

Additional observations from a re-analysis of the deposited data

Results flagged for a closer look

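RIM15 responded differently to the bmh mutations in the presence and in the absence of HDA1 and RPD3, by the test of the difference itself. The change without the deacetylases exceeded that with them by 0.57 on the log2 scale (adjusted p = 0.0076), and in the alternatives run the difference lay between 0.48 and 0.72, with adjusted p from 2.1e-05 to 0.023. The hdac mutant, which enters this value, had all 4 alpha-cell markers higher than the wild type (median difference 4.03), whereas in the combined mutant 1 of the 4, SAG1, rose; the part of mating-type transcripts in the value was not tested.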

How the results depend on the processing

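For 20 of 35 differences (5 genes in 7 comparisons) the direction and the side of the threshold were the same under every alternative run; these include all 6 pairwise differences of XBP1, and those of RIM15 apart from the bmh mutant against the wild type. Over all 840 recomputed differences 795 kept both, 14 lost the call, 17 gained it and 14 changed sign. Members called in the combined against the hdac mutant numbered 4 with array weights in place of 2. In the interaction they numbered 2 in place of 1 with quantile normalization, with a trend, with the filter on dim genes and with the median difference set to 0, 3 with array weights, and 1 to 2 when 1 array was left out. With array weights RIM15 in the bmh mutant was −0.11 (0.01 in the fit reported), and the median difference set to 0 gave GIS1 0.0264 against the wild type in the hdac mutant, 0.0566 in the combined mutant, and 0.03025 between these. With 1 array left out, RIM15 in the bmh mutant ranged from −0.0867 to 0.10, GIS1 from −0.26 to 0.0302 in the hdac and from −0.27 to 0.0221 in the combined mutant, GIS1 in the combined against the hdac mutant from −0.0593 to 0.0334, and the MSN2 interaction from −0.0942 to 0.0270. None of these was called in the fit reported, and the cause was not tested. With a replicate block the MSN2 call in the hdac against the bmh mutant ended (adjusted p = 0.063); the block changed no other call of a member, and with the bmh and combined arrays fitted as pairs all 5 members were called. Signals near the background of 4.13 limit XBP1 in the wild type to an upper bound.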

Other observations

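XBP1 and SGA1 lie next to each other on the chromosome in RefSeq's annotation (assembly R64) and, by their systematic names YIL101C and YIL099W, on opposite strands. Of the 10 genes that flank the 5 members, all measured, SGA1 was chosen after the values were seen. SGA1, a glucoamylase of sporulating cells, had log2 means (n = 3) of 5.68 and 6.41 in the wild-type and bmh strains, and of 10.68 and 11.05 in the hdac and combined strains. It rose by 0.73 (adjusted p = 1.0e-05), 5.00 (adjusted p = 8.5e-14) and 5.37 (adjusted p = 4.7e-14) in the 3 mutants relative to the wild type, so that its strains had the same order as those of XBP1. The gene on the other side of XBP1, YIL102C, was at background in all 4 strains, with means of 3.76 to 3.88.

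The genes with the profile most like each member were found by Pearson correlation over the 12 arrays, which fall into 4 strains, so the coefficients mostly compare strain means and are given as a description. XBP1 was most like ECM21, an arrestin-related protein (r = 0.996), the meiotic kinase gene IME2 (r = 0.995) and ECM38 (r = 0.995), and 335 genes exceeded 0.95. RIM15 was most like the peroxisomal isomerase ECI1 (r = 0.986), the biotin synthesis gene BIO3 (r = 0.980) and the acetyl-CoA synthetase ACS1 (r = 0.980), with 40 genes above 0.95; ECI1 read 7.02, 7.06, 8.24 and 9.44 in the wild-type, bmh, hdac and combined strains. MSN4 was most like the inositol transporter ITR1 (r = 0.982), the phospholipid methyltransferase OPI3 (r = 0.974) and GUP2 (r = 0.973). MSN2 was most like the ribosome assembly factor UTP18 (r = 0.949) and the splicing factors CWC2 (r = 0.949) and SNU56 (r = 0.948). GIS1 was most like HMS1 (r = 0.925), ACA1 (r = 0.908) and the IMP dehydrogenase IMD3 (r = 0.907), and no gene exceeded 0.95 for GIS1 or MSN2.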
